A study of Mus musculus with 11 samples.

Results

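Described here are 10 C-type lectin receptor genes of myeloid cells, read from mouse lung RNA: Mrc1, Clec10a (written Mgl1 on the array), Mgl2, Cd209a, Cd209d, Clec7a, Clec4n, Clec4d, Clec4e and Clec4a2. They were chosen by gene name alone, as the probes whose name in the scanner files is one of these 10. This gave 12 of 41174 probes, 1 for each gene apart from Clec4a2 with 3, and 10 of the 21881 genes that were tested. Each gene was well above background on all 11 arrays.

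The arrays carry whole-lung RNA of Foxa3 knockout mice (labelled Foxa3-/-) and of their littermate controls, called wild type here. Mice were challenged with OVA, by background the egg protein ovalbumin used to provoke allergic airway inflammation, or with saline. There are 3 knockout OVA, 3 wild-type OVA, 2 knockout saline and 3 wild-type saline arrays. Strain, age, the form of the deletion, and the doses and times of challenge are not given in the sources used here, and neither is whether each array is 1 animal, so p-values measure the spread between these samples.

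C-type lectin receptors bind sugar chains on microbes and on the body's own glycoproteins. The mannose receptor (Mrc1), the galactose-type lectins (Clec10a and Mgl2) and the relatives of human DC-SIGN (Cd209a and Cd209d) mainly take up glycosylated cargo, and in mouse cells the mannose receptor is known to take up ovalbumin. Dectin-1 (Clec7a), dectin-2 (Clec4n), MCL (Clec4d) and Mincle (Clec4e) activate the kinase Syk, the last 3 through the adaptor Fcer1g, whereas DCIR (Clec4a2) carries an inhibitory motif that recruits phosphatases.

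These receptors belong to families of related genes, so the probe that reads each one matters. The 60-base probes of 5 members are shown because they lie in families of close relatives on chromosomes 6, 8 and 11. Positions are those of the probe annotation in the scanner files (mm7), and none of the letters is capitalised because no motif was searched in them.
Mgl2, chr11:70218604-70218663, plus strand: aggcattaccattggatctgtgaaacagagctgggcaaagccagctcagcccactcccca
Cd209a, chr8:3710076-3710747, minus strand: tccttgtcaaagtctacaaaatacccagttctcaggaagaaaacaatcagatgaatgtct
Cd209d, chr8:3833531-3833590, minus strand: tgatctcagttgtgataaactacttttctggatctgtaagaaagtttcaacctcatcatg
Clec4n, chr6:123281342-123283248, plus strand: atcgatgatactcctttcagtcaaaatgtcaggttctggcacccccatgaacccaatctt
Clec4a2, chr6:123165001-123176223, plus strand: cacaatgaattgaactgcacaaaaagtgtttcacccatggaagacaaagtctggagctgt

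The Cd209a, Clec4n and Clec4a2 probes shown span 672, 1907 and 11223 bases of the genome, so each joins separate exons of a spliced transcript. Clec4a2 was represented in the tests by a brighter probe at chr6:123177429-123177488, whose accession field also lists a transcript of the related gene Clec4b1. Its value may therefore hold signal of both genes. The exon-joining probe, whose field lists no other gene of the family, is given beside it.

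The sequence before the gene is shown for 3 members that rose after OVA in both genotypes and for Cd209a, which did not. These are the bases of RefSeq's promoter windows (GRCm38.p6, from 250 bases before to 50 after a start site of the gene) that lie before the annotated gene. For Cd209d that site lies inside the annotated gene, which leaves 201 bases. Capitals mark the letters GAGGAA or their complement TTCCTC, the core bound by PU.1, a transcription factor of myeloid cells.
Mrc1, chr2:14229164-14229413, plus strand: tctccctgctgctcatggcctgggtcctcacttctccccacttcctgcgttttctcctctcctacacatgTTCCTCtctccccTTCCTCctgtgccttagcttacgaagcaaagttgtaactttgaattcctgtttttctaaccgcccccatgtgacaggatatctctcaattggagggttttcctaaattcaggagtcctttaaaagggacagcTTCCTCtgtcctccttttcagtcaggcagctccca
Clec7a, chr6:129472786-129473035, minus strand: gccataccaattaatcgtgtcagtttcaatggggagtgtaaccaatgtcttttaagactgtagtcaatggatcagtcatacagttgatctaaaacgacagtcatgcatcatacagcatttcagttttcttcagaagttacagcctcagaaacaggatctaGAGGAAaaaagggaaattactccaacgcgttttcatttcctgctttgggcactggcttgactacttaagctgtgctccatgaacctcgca
Cd209d, chr8:3878549-3878749, minus strand: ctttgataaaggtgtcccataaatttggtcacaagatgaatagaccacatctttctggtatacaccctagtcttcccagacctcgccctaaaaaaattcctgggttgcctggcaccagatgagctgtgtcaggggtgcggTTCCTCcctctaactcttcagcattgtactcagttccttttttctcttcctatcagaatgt
Cd209a, chr8:3748985-3749234, minus strand: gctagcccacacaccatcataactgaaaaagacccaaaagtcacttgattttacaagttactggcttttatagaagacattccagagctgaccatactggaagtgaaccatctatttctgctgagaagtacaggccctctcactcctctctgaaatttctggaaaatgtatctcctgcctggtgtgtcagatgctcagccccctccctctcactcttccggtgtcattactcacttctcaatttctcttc

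The promoter table held 8 of the 10 members, all but Clec10a and Clec4n. On either strand of the 300-base window, GAGGAA was found in 6 of these 8 (Mrc1, Mgl2, Cd209d, Clec7a, Clec4d and Clec4e) and in 28.3% of all 27025 windows in the table. Among the 6 are Clec4d and Clec4e, which did not pass the test after OVA, while Clec4a2, which rose, had no match. All but 18 bases of the Mgl2 window lie inside the annotated gene, and so does its GAGGAA match. The form preferred by STAT6, TTC and GAA 4 bases apart, was in Clec7a and in 6.99% of all windows, and the shorter STAT form TTCNNNGAA was in Clec4a2 and in 8.47%. A C/EBP form, TTGCNNAA, was in Clec4e and in 10.8% of all windows. An NF-kB form, GGGA and CC 4 bases apart, was in Mrc1, Mgl2 and Cd209d and in 20.5%, and its match in Cd209d overlaps the GAGGAA match. TATAAA was in Cd209a, Clec4e and Clec4a2 and in 14.2%. A match is a description of the letters in the window only.

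Levels are given as log2 intensity after subtraction of the array's 75th percentile, so that 0 is the intensity below which 75% of probes lie. This scaled log2 level compares arrays for 1 probe. It does not rank different genes, whose probes differ in brightness.

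After OVA, 7 of the 10 receptors rose in both genotypes: the mannose receptor gene Mrc1, the galactose-type lectin genes Clec10a and Mgl2, Cd209d, the activating receptor genes Clec7a and Clec4n, and the inhibitory receptor gene Clec4a2. In knockouts these 7 rose by 1.27 to 2.66 on the log2 scale and in wild type by 1.03 to 2.34 (limma, Benjamini-Hochberg adjusted p under 0.05 over all genes tested). None fell. With slide as a block, 5 were called in knockouts and 6 in wild type, with Mrc1 lost in both and Clec7a in knockouts. Of all genes, 6.17% rose and 2% fell after OVA in knockouts, and 10.6% rose and 8.49% fell in wild type. The median difference over the 10 members was 1.71 in knockouts and 1.19 in wild type, beside -0.03 and 0.00 over all genes. In lung tissue, more cells of a type and more RNA per cell cannot be told apart.

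**Figure D1:**
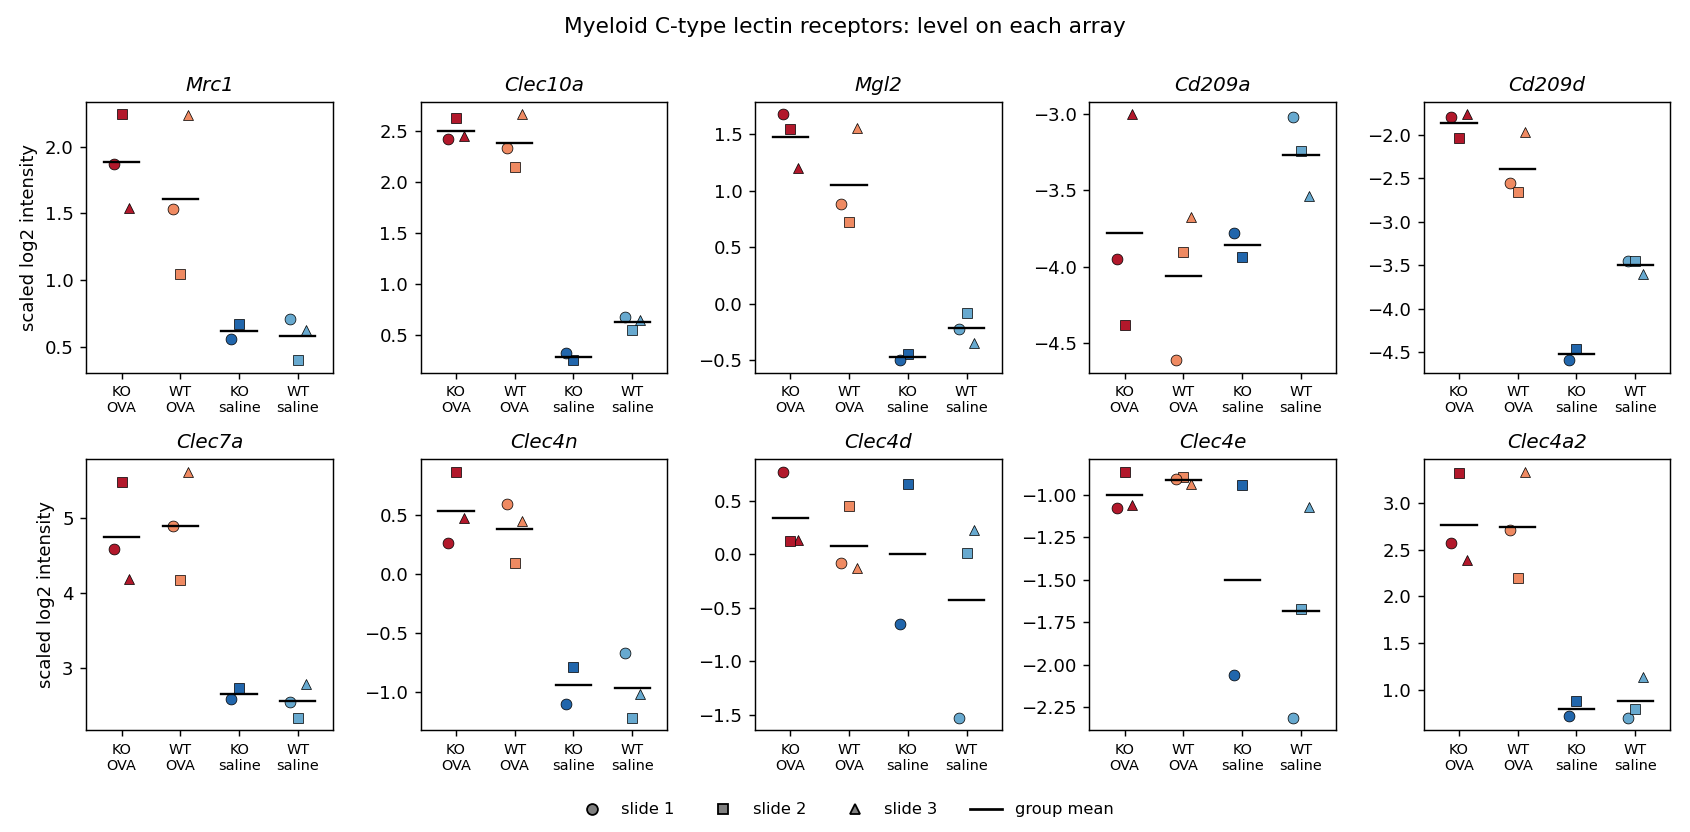
Scaled log2 intensity (vertical axis, its own range in each panel) of the 10 receptor genes on each of the 11 arrays, by group, with symbols for the slide and a bar for the group mean. In 7 panels every OVA array lies above every saline array of the same genotype and of the other genotype; Cd209a, Clec4d and Clec4e overlap.

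Among the uptake receptors, Clec10a read 2.42, 2.45 and 2.63 on the knockout OVA arrays and 2.14, 2.66 and 2.33 on the wild-type OVA arrays. It read 0.25 and 0.32 on the knockout saline arrays and 0.68, 0.55 and 0.65 on the wild-type saline arrays. The 6 OVA arrays lay above the 5 saline arrays with no overlap. The difference of OVA from saline was 2.21 ± 0.15 (SE; adjusted p = 0.000863), 4.63-fold, in knockouts and 1.75 ± 0.14 (adjusted p = 0.000537), 3.37-fold, in wild type.

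Mgl2, the second galactose-type lectin, read 1.68, 1.20 and 1.55 on the knockout OVA arrays and 0.72, 1.55 and 0.88 on the wild-type OVA arrays. Its saline arrays read -0.44 and -0.50 in knockouts and -0.22, -0.08 and -0.35 in wild type, all below every OVA array. Mgl2 rose by 1.95 ± 0.24 (adjusted p = 0.00417), 3.86-fold, in knockouts and by 1.27 ± 0.21 (adjusted p = 0.00788), 2.41-fold, in wild type.

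For Mrc1, the mannose receptor, the levels were 1.87, 1.54 and 2.25 on the knockout OVA arrays and 1.05, 2.24 and 1.53 on the wild-type OVA arrays. They were 0.67 and 0.56 on the knockout saline arrays and 0.71, 0.40 and 0.63 on the wild-type saline arrays. The groups did not overlap, but the 3 OVA arrays of each genotype were spread widely. Mrc1 rose by 1.27 ± 0.32 (adjusted p = 0.0450), 2.41-fold, in knockouts and by 1.03 ± 0.29 (adjusted p = 0.0391), 2.04-fold, in wild type. Both calls were close to the threshold: each was lost under 15 of 25 other settings, with adjusted p up to 0.418 in knockouts and 0.315 in wild type, and with slide as a block 0.101 in knockouts and 0.0649 in wild type.

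Cd209d, which encodes SIGNR3, read -1.80, -1.76 and -2.04 on the knockout OVA arrays and -2.66, -1.97 and -2.55 on the wild-type OVA arrays. Its saline levels were -4.46 and -4.59 in knockouts and -3.45, -3.45 and -3.60 in wild type. In each genotype the OVA arrays lay above the saline arrays, and the saline arrays of the 2 genotypes were separate. The rise after OVA was 2.66 ± 0.20 (adjusted p = 0.000863), 6.33-fold, in knockouts and 1.11 ± 0.18 (adjusted p = 0.00611), 2.15-fold, in wild type. With plain normexp background correction it was 1.75 (adjusted p = 0.413) in knockouts and 0.69 (adjusted p = 0.920) in wild type. Every other member called after OVA lost its call under that setting too, in both genotypes.

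The family member Cd209a did not pass the test in either genotype. It read -3.95, -3.00 and -4.38 on the knockout OVA arrays and -3.90, -3.68 and -4.61 on the wild-type OVA arrays, against -3.94 and -3.78 on the knockout saline arrays and -3.02, -3.24 and -3.54 on the wild-type saline arrays. In wild type the 3 OVA arrays lay below the 3 saline arrays, by 0.80 ± 0.36 on average (log2 difference -0.80, adjusted p = 0.140). In knockouts the arrays overlapped and the difference was 0.08 ± 0.40 (adjusted p = 0.919). Of 25 other settings, 1 took the wild-type difference past the threshold: with array weights it was -1.04 (adjusted p = 0.0197).

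Among the receptors that signal through Syk, Clec7a, the beta-glucan receptor dectin-1, read 4.59, 4.18 and 5.48 on the knockout OVA arrays and 4.17, 5.62 and 4.89 on the wild-type OVA arrays. It read 2.73 and 2.58 on the knockout saline arrays and 2.54, 2.33 and 2.79 on the wild-type saline arrays, well below all OVA arrays. The rise was 2.10 ± 0.44 (adjusted p = 0.0273), 4.28-fold, in knockouts and 2.34 ± 0.40 (adjusted p = 0.00809), 5.06-fold, in wild type. The knockout call was lost under 9 of 25 other settings, among them a block for slide (adjusted p = 0.0757) and the omission of knockout saline array 1 or 2 or of knockout OVA array 1 or 3.

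Clec4n, the mannan receptor dectin-2, read 0.26, 0.48 and 0.87 on the knockout OVA arrays and 0.10, 0.45 and 0.60 on the wild-type OVA arrays. Its saline levels were -0.79 and -1.10 in knockouts and -0.67, -1.22 and -1.02 in wild type. No saline array reached the lowest OVA array. Clec4n rose by 1.48 ± 0.24 (adjusted p = 0.00912), 2.79-fold, in knockouts and by 1.35 ± 0.21 (adjusted p = 0.00591), 2.55-fold, in wild type.

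Clec4a2, the inhibitory receptor DCIR, read 2.57, 2.39 and 3.32 on the knockout OVA arrays and 2.20, 3.34 and 2.71 on the wild-type OVA arrays. It read 0.88 and 0.72 on the knockout saline arrays and 0.70, 0.79 and 1.13 on the wild-type saline arrays, with no overlap between challenges. The rise was 1.96 ± 0.35 (adjusted p = 0.0140), 3.90-fold, in knockouts and 1.87 ± 0.32 (adjusted p = 0.00780), 3.66-fold, in wild type. The exon-joining probe gave 2.08 ± 0.41 (adjusted p = 0.0204) in knockouts and 1.85 ± 0.36 (adjusted p = 0.0141) in wild type. The third probe was not well above background on any of the 11 arrays.

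Clec4d and Clec4e, the genes of MCL and Mincle, did not pass the test in either genotype. Clec4d read 0.77, 0.13 and 0.13 on the knockout OVA arrays and 0.46, -0.13 and -0.08 on the wild-type OVA arrays, against 0.65 and -0.65 on the knockout saline arrays and -1.53, 0.01 and 0.23 on the wild-type saline arrays. Its saline arrays spread over a wider range than its OVA arrays and overlapped them. The log2 difference was 0.34 ± 0.55 (adjusted p = 0.725) in knockouts and 0.51 ± 0.49 (adjusted p = 0.497) in wild type.

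Clec4e read -1.08, -1.06 and -0.86 on the knockout OVA arrays and -0.90, -0.94 and -0.91 on the wild-type OVA arrays. Its saline levels were -0.94 and -2.06 in knockouts and -2.31, -1.67 and -1.07 in wild type. The 6 OVA arrays lay close together, while the saline arrays ran from that level down. In wild type all 3 OVA arrays lay above the saline arrays, with a log2 difference of 0.77 ± 0.33 (adjusted p = 0.130), and in knockouts the arrays overlapped, with 0.50 ± 0.37 (adjusted p = 0.401). Counted by arrays that do not overlap, 7 members were higher after OVA in knockouts and 8 in wild type, where Cd209a alone was lower; over all genes 23.3% were higher and 26% lower without overlap in knockouts, and 21.3% higher and 21.5% lower in wild type.

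**Figure D2:**
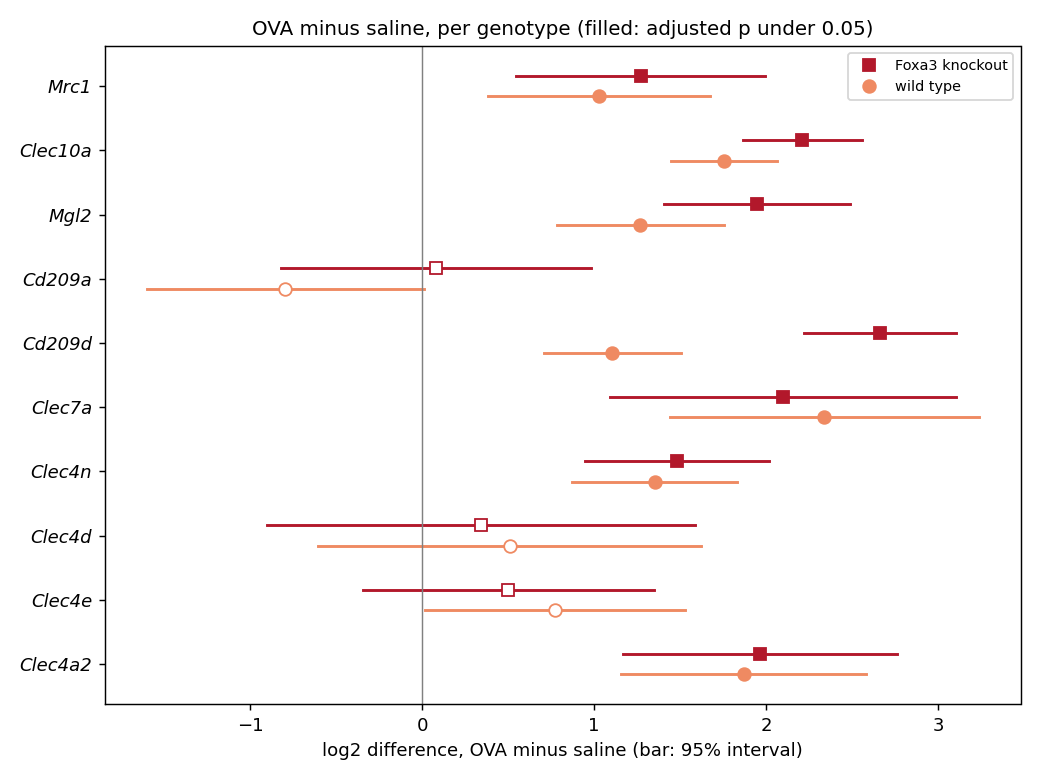
Log2 difference of OVA from saline for each receptor gene (horizontal axis), in Foxa3 knockouts (squares) and wild type (circles), with 95% intervals from limma; filled symbols have an adjusted p under 0.05. The 7 filled genes lie between 1.03 and 2.66, and the intervals of Clec4d and Cd209a in both genotypes and of Clec4e in knockouts span 0.

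The arrays came from 3 slides; both slide 1 and slide 2 carry all 4 groups, and slide 3 carries all but knockout saline. Slide 1 stood apart from the others on the second principal component over all genes, at 34.0 to 42.0 against -28.9 to -16.8. Within slides the 7 called members were higher after OVA each time, by 1.31 to 2.79 on 2 slides in knockouts and by 0.65 to 2.83 on 3 slides in wild type. Without the 4 arrays of slide 1 the differences of the 7 were 1.22 to 2.56 in knockouts and 1.13 to 2.33 in wild type. None of them was then called in either genotype, and 13 genes in knockouts and 27 in wild type were called over the whole table. Without knockout saline array 1 or 2, the count of members called in knockouts was 2 or 3, in place of 7.

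The OVA arrays of 1 genotype differed among themselves in most of the members that rose. Mrc1, Clec7a and Clec4a2 shared 1 order in both genotypes: array 3, then 1, then 2 among the knockout OVA arrays, and array 2, then 3, then 1 among the wild-type OVA arrays, from high to low. The first principal component over all genes gave these arrays the same order, with 63.5, 42.7 and 13.8 for the knockout OVA arrays and 66.4, 51.1 and 13.2 for the wild-type OVA arrays. In wild type Clec10a, Mgl2 and Cd209d also followed that order, and in knockouts they did not. Wild-type OVA array 1, the lowest of its 3 in all 7, also stood apart on the third component, at -66.9.

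Markers of some cell types rose with the 7 receptors, and those of others did not. Of 12 measured macrophage and monocyte markers, 8 rose after OVA in knockouts and 10 in wild type, with none lower. The complement genes C1qb and C1qc rose by 2.69 and 2.43 in knockouts and by 2.72 and 2.46 in wild type, and the Fc receptor gene Fcgr1 rose by 1.91 in knockouts and 3.07 in wild type. The log2 of the summed level of the 12 markers was 7.68 to 7.94 on the knockout OVA arrays, 8.05 to 8.20 on the wild-type OVA arrays, 7.38 to 7.82 on the knockout saline arrays and 7.25 to 7.48 on the wild-type saline arrays. Lyz2 was by far the brightest of them and weighs most in this sum. It averaged 7.21, 7.50, 7.43 and 7.12 in these groups. The same sum over the 10 receptors, of which Clec7a was the brightest, was 5.23 to 6.18, 5.08 to 6.25, 3.64 to 3.88 and 3.64 to 3.94 in these groups.

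Dendritic cell markers rose in 4 of 8 cases in knockouts and 5 of 8 in wild type, led by Batf3 with 3.19 in knockouts and 2.72 in wild type. The mean of Zbtb46 was lower after OVA than after saline, at -0.34 against -0.13 in knockouts and -0.57 against -0.33 in wild type. That of Xcr1 was -3.20 against -2.81 in knockouts and -2.83 against -2.88 in wild type. Of 4 measured eosinophil markers, Prg2 rose by 3.81 in knockouts and 3.02 in wild type and Ccr3 by 2.83 in knockouts and 2.69 in wild type. The means of the others differed less. Il5ra averaged -4.87 after OVA against -6.05 after saline in knockouts and -4.57 against -5.51 in wild type. Ear6 averaged 1.86 against 0.69 in knockouts and 1.28 against 0.49 in wild type. Among 6 alveolar macrophage markers, Itgax rose by 2.09 in knockouts and 1.65 in wild type, and Siglecf fell by 0.79 in knockouts and 0.50 in wild type. Fabp4 rose by 1.04 in knockouts and gave -0.05 in wild type. The means of Marco and Car4 were lower after OVA than after saline in both genotypes. Marco averaged 2.78 against 3.26 in knockouts and 1.98 against 2.51 in wild type. Car4 averaged 1.72 against 1.97 in knockouts and 1.56 against 1.87 in wild type. The mean of Krt79 was higher, at 1.62 against 1.04 in knockouts and 1.46 against 1.13 in wild type. All 4 general leukocyte markers rose in wild type, by 0.89 to 0.96, and none passed the test in knockouts, at 0.43 to 0.89. T cell markers rose in 0 of 5 cases in knockouts and 3 of 5 in wild type, and no B cell marker of 4 passed the test. Of 8 markers of lung epithelium and endothelium, 1 fell in knockouts and 2 in wild type. No marker on these lists was listed at 0, and the part of these cell types in the receptors' rise was not tested.

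The other C-type lectin genes did not move as 1 group. Of 29 listed, 27 were measured, and 6 rose and none fell after OVA in knockouts, whereas 7 rose and 6 fell in wild type; their median difference was 0.14 in knockouts and 0.05 in wild type. Of those that rose, 2 in knockouts (Cd209e and Clec12a) and 3 in wild type (Clec4a1 as well) were not well above background on any saline array and were kept only because of their OVA arrays. Within the Cd209 family, Cd209e was well above background on 3 of 3 knockout OVA arrays and 2 of 3 wild-type OVA arrays. For each saline array a bound was set, the higher of Cd209e's own level and the lowest level well above background. Against the mean of these bounds, the mean of Cd209e after OVA was 5.87-fold higher in knockouts and 6.49-fold higher in wild type. These folds are estimates, since some spots above the lowest such level were not well above background. The wild-type mean includes an OVA array on which Cd209e was not well above background. Cd209b, the marginal-zone receptor SIGNR1, gave -0.51 ± 0.15 (adjusted p = 0.0713) in knockouts and fell, with -1.17 ± 0.14 (adjusted p = 0.00227), in wild type. Clec4b1, the relative of Clec4a2, rose by 1.88 ± 0.30 (adjusted p = 0.00895) in knockouts and by 1.72 ± 0.27 (adjusted p = 0.00569) in wild type. Clec4a3 and Clec5a, well above background on every array, rose too. Clec4a3 rose by 1.77 (adjusted p = 0.040) in knockouts and 1.86 (adjusted p = 0.016) in wild type. Clec5a rose by 1.62 (adjusted p = 0.030) in knockouts and 1.78 (adjusted p = 0.0097) in wild type. A rise of this size was thus not particular to the members.

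Genes that carry the receptors' signals rose in part. Of 24 listed, 22 were measured, and 4 rose in knockouts and 13 in wild type, with none lower and medians of 0.55 in knockouts and 0.80 in wild type. Malt1, which joins Card9 and Bcl10 downstream of Syk, rose by 1.14 (adjusted p = 0.0183) in knockouts and 1.08 (adjusted p = 0.0104) in wild type, and the NF-kB subunit gene Relb by 0.92 in knockouts and 0.93 in wild type. The exchange factor gene Vav1 rose by 1.44 (adjusted p = 0.0135) in wild type and gave 1.19 (adjusted p = 0.0510) in knockouts. Fcer1g and Syk were likewise called in wild type only. Fcer1g gave 0.93 (adjusted p = 0.0656) in knockouts and 1.25 (adjusted p = 0.013) in wild type. Syk gave 0.69 (adjusted p = 0.105) in knockouts and 0.89 (adjusted p = 0.0294) in wild type. Card9 was among the 2 genes with no probe that could be tested.

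Of 15 listed cytokines and early genes downstream of the receptors, 13 were measured, and 3 rose in knockouts and 7 in wild type. These were Il10, Cxcl1 and Tnf in both genotypes, with 1.20, 2.16 and 1.23 in knockouts and 1.84, 2.24 and 1.43 in wild type. Il6 rose by 2.81 (adjusted p = 0.0210) in wild type and gave 2.13 (adjusted p = 0.0881) in knockouts. Of 17 genes of IL-4 and STAT6 in macrophages, the setting in which Mrc1, Clec10a and Mgl2 are known to be induced, 9 rose in knockouts, among them Ccl22, which was not well above background on the knockout saline arrays, and 11 in wild type, with medians of 1.70 in knockouts and 1.50 in wild type. Socs1, Retnla and Msr1 rose by 2.11, 2.40 and 3.15 in knockouts and by 2.71, 2.50 and 3.28 in wild type. The lists were chosen with earlier results of these data known, and their counts are descriptions; no gene on them passed the test between genotypes.

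Clec4d and Clec4e were lowest on the saline arrays where most neutrophil markers were lowest. Csf3r, the receptor for granulocyte colony-stimulating factor, read 1.02, 0.26 and 0.23 on the knockout OVA arrays and 0.29, 0.30 and 0.06 on the wild-type OVA arrays, against 1.15 and -0.20 on the knockout saline arrays and -1.66, 0.03 and 0.65 on the wild-type saline arrays. As in Clec4d and Clec4e, wild-type saline array 1 was the lowest of its 3 and knockout saline array 2 the lower of its 2, and both lay on slide 1. The same 2 arrays were the lowest saline arrays of their genotype in S100a8, S100a9, Cxcr2, Mmp8, Retnlg and Ltf, but not in Ngp.

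**Figure D3:**
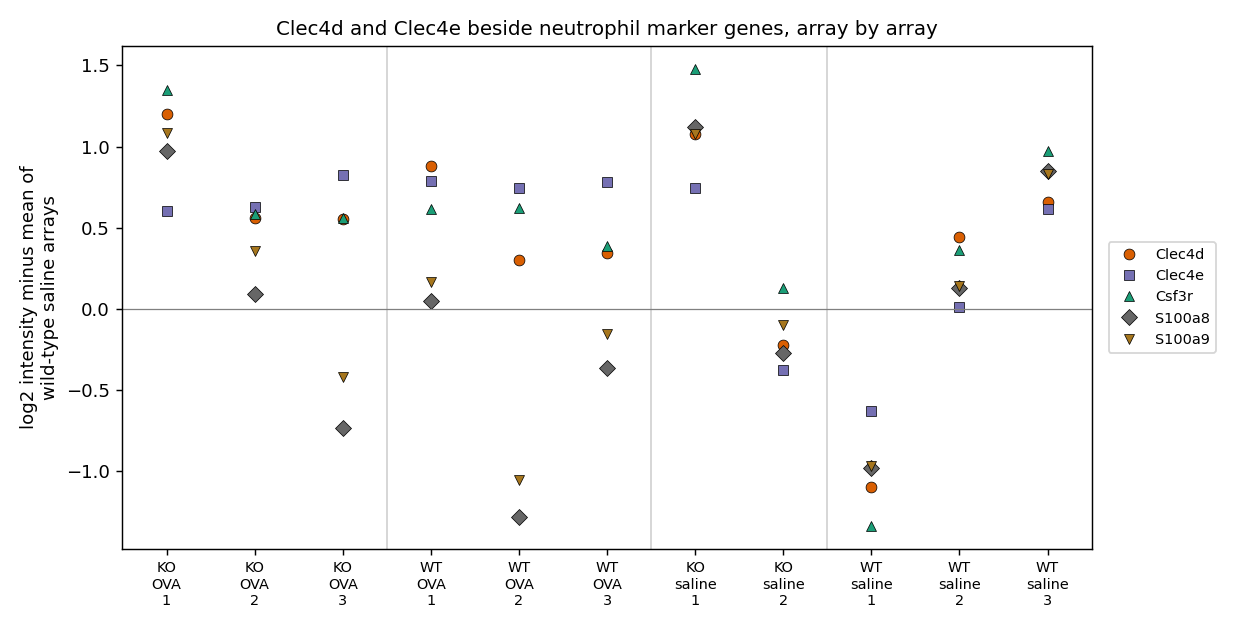
Log2 intensity minus the mean of the wild-type saline arrays (vertical axis) of Clec4d and Clec4e and of the neutrophil genes Csf3r, S100a8 and S100a9, on each array by group and replicate number. On the saline arrays the 5 genes are lowest on wild-type array 1 and lower on knockout array 2 than on knockout array 1.

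Of 8 neutrophil markers, Ltf alone passed the test after OVA, with 1.21 in knockouts and 0.96 in wild type, and the log2 of their summed level overlapped between all groups. It was 5.70 to 6.92 on the knockout OVA arrays, 5.19 to 6.13 on the wild-type OVA arrays, 5.68 to 6.82 on the knockout saline arrays and 4.90 to 6.61 on the wild-type saline arrays. S100a9 was the brightest of the 8 markers and weighs most in this sum. The within-slide OVA differences of Clec4d were 1.43 and -0.53 on slides 1 and 2 in knockouts and 1.44, 0.44 and -0.36 on slides 1 to 3 in wild type. For Clec4e they were 0.98 and 0.08 in knockouts and 1.41, 0.77 and 0.13 in wild type. In both genes the largest of these differences lay on slide 1, and the part of neutrophil content or slide in them was not tested.

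To set the genotypes apart, Foxa3 itself was read first: it was well above background on 6 of 6 wild-type arrays and on 0 of 5 knockout arrays, at scaled log2 levels of -9.18 to -7.73 in knockouts and -6.17 to -4.00 in wild type. None of the 10 receptors then passed the test between knockout and wild type, either after OVA or after saline. Few genes did so over the whole table, 0.215% after OVA and 0.096% after saline. After OVA, the log2 differences of the members ran from -0.14 (Clec7a) to 0.53 (Cd209d), and the arrays of the genotypes overlapped in all 10, while over all genes 3.88% were higher and 4.45% lower in knockouts without overlap. After saline they ran from -1.03 (Cd209d) to 0.43 (Clec4d).

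Cd209d was the 1 member of 10 with an unadjusted limma p under 0.05, in both comparisons. Of all 21881 genes tested, 1086 reached such a p after OVA and 713 after saline. After OVA Cd209d was 0.53 ± 0.18 higher in knockouts (95% interval 0.13 to 0.93, unadjusted p = 0.0144, adjusted p = 0.683). After saline the difference of knockout from wild type was -1.03 ± 0.20 (95% interval -1.47 to -0.58, unadjusted p = 0.000540, adjusted p = 0.227), with -1.14 on slide 1 and -1.01 on slide 2. That saline difference passed the test under 2 of 25 other settings. These were array weights (adjusted p = 0.0279) and the omission of wild-type OVA array 2 (adjusted p = 0.0437). Over the 25 settings the saline difference ran from -1.15 to -0.45, and the difference after OVA from -0.08 to 0.74. On the knockout saline arrays the background-subtracted intensity of Cd209d was 61.6 and 43.5. The knockout saline group has 2 arrays.

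Clec10a, Mgl2, Cd209a and Cd209d were lower on both knockout saline arrays than on all 3 wild-type saline arrays, a separation that 10% of all genes showed. None was higher on both, as 11.7% of all genes were. The differences of Clec10a, Mgl2 and Cd209a were -0.34 ± 0.15, -0.25 ± 0.24 and -0.59 ± 0.40. Of 3 markers of other tissues, none passed the test, but the heart gene Myh6 and the fat gene Adipoq were also lower on both knockout saline arrays. Myh6 read 2.01 to 2.56 on the knockout saline arrays and 3.17 to 3.52 on the wild-type saline arrays, and Adipoq read -1.93 to -1.32 on the knockout saline arrays and -0.66 to 0.06 on the wild-type saline arrays. The liver gene Alb overlapped, at -4.15 to -3.46 on the knockout saline arrays and -4.10 to 0.27 on the wild-type saline arrays. The log2 of their summed level was 2.13 to 2.67 on the knockout saline arrays and 3.44 to 3.65 on the wild-type saline arrays, and its part in the receptors' differences was not tested.

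The intervals show what differences between genotypes these arrays would still allow. After OVA, the 95% interval was -0.19 to 0.43 for Clec10a, -0.32 to 0.63 for Clec4n, -0.06 to 0.91 for Mgl2 and -0.37 to 0.93 for Mrc1. For Clec4a2 it was -0.70 to 0.73, for Clec7a -1.04 to 0.76 and for Cd209a -0.52 to 1.09. It was -0.84 to 0.67 for Clec4e and -0.85 to 1.38 for Clec4d. The narrowest was that of Clec10a and the widest that of Clec4d.

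**Figure D4:**
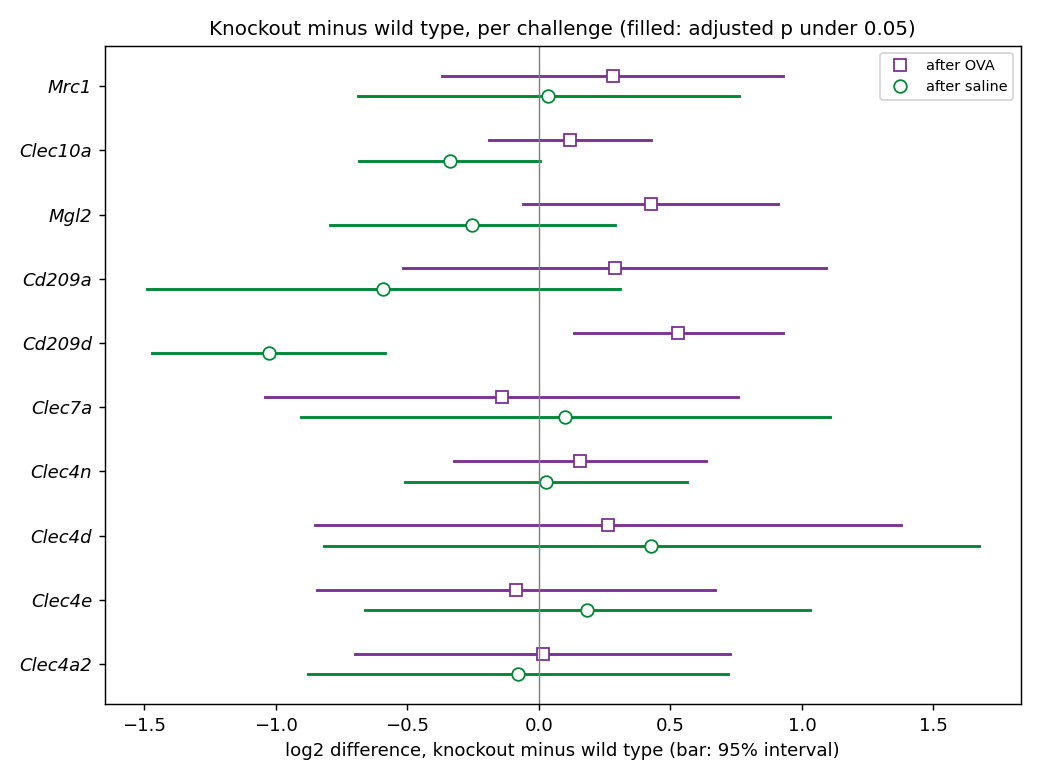
Log2 difference of Foxa3 knockout from wild type for each receptor gene (horizontal axis), after OVA (squares) and after saline (circles), with 95% intervals from limma; open symbols did not reach an adjusted p under 0.05. All symbols are open, and only for Cd209d do both intervals leave out 0, at -1.47 to -0.58 after saline and 0.13 to 0.93 after OVA.

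Within slides, the sign of the genotype difference after OVA differed between slides in 9 of the 10 members. Clec7a gave -0.30, 1.31 and -1.44 on slides 1, 2 and 3, Clec4a2 gave -0.13, 1.13 and -0.95, and Mrc1 gave 0.34, 1.20 and -0.70. The differences of Clec10a were smaller, at 0.09, 0.48 and -0.22, and changed sign too. Cd209d, the exception, was higher in knockouts on each slide, by 0.75, 0.62 and 0.21.

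Whether the OVA response differed between genotypes was tested as the difference of the OVA effects, knockout minus wild type. None of the 10 members passed the limma test, beside 1 gene called, 0.00457%, over the whole table. An unadjusted limma p under 0.05 was reached by 1 member and by 567 of all 21881 genes. Cd209d had the widest difference, 1.56 ± 0.26 (95% interval 0.96 to 2.15, unadjusted p = 0.000226, adjusted p = 0.832), with 1.90 on slide 1 and 1.63 on slide 2. Under 24 other settings it ran from 0.85 to 1.77. Cd209a gave 0.88 ± 0.53, Mgl2 0.68 ± 0.32 and Clec10a 0.46 ± 0.20, and the other 6 lay between -0.27 and 0.24, all with an adjusted p of 1.00. The effects in the 2 genotypes come from separate arrays.

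Over the 4 groups, the means of 6 of the 7 members that rose ran from knockout OVA through wild-type OVA to the saline groups, and those of Clec7a put wild-type OVA highest. Neighbouring groups of 1 challenge did not differ by the test in any member. For Cd209d the group means were -1.86 ± 0.15 in knockout OVA, -2.39 ± 0.37 in wild-type OVA, -3.50 ± 0.08 in wild-type saline and -4.53 ± 0.09 in knockout saline (SD, n = 3, 3, 3 and 2). Clec7a averaged 4.75 ± 0.67 in knockout OVA, 4.89 ± 0.72 in wild-type OVA, 2.65 ± 0.11 in knockout saline and 2.56 ± 0.23 in wild-type saline.

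To show how the members resemble one another, each profile over the 11 arrays was set to 0 at the mean of the wild-type saline arrays, and pairs were compared by the root mean square difference. The closest pairs were Clec10a with Clec4a2, at 0.271, and Clec10a with Mgl2, at 0.316. Clec4d and Clec4e were nearest to each other, at 0.353. Cd209a was far from all the others, at 1.24 from Clec4e to 2.29 from Clec7a.

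By the same measure over 16704 named genes, those most like each member were listed, as a description over 11 arrays that share slide and scaling. Bhlhe40 (0.105) and Atad2 (0.111) were nearest to Mrc1, Gpr85 (0.131) and S100a4 (0.142) to Clec10a, and Cfp (0.196) and Dio2 (0.208) to Mgl2. Clec7a lay nearest to Fcgr2b (0.166) and Slc7a8 (0.178), Clec4a2 to Gpr65 (0.112) and Ifi30 (0.130), and Clec4n to Podnl1 (0.188) and H2-DMb1 (0.209). The nearest genes were Csf3r (0.242) and Asprv1 (0.262) for Clec4d and Jaml (0.207) and Padi4 (0.211) for Clec4e. Cd209d and Cd209a had no such close match: Nts (0.331) and Adora3 (0.367) were nearest to Cd209d, and Dhh (0.292) and Hepacam2 (0.324) to Cd209a.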

How the data were processed

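Total RNA of mouse lung was measured on 11 one-colour Agilent arrays. Per the file headers, Feature Extraction 9.5.1.1 (9.1 in the submitters' processing notes) gave each spot a background-subtracted, detrended intensity; probe positions are on mm7. The authors' deposited value table holds log2 values whose column medians are 7.669 to 7.674; its ranks follow the raw spot signal (rank correlation at least 0.999923), and its normalization method is not given in the sources used here.

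Uneven and population-outlier spots were left out, spots of a probe averaged, and log2 intensities scaled to each array's 75th percentile. Of the probes, 32956 were well above background on at least 2 arrays. A gene's brightest probe stood for it, and symbols were updated from RefSeq's mouse gene table. Between 71.2% and 78.9% of probes were well above background, and the number of arrays limits the precision. The 21881 genes were fitted together in limma (3.58.1, under R 4.3.3), which estimated a mean for each group (7 residual and 1.95 prior degrees of freedom). Tests were two-sided, and an adjusted p (Benjamini-Hochberg) under 0.05 was called.

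Groups follow the labels. Arrays with the same replicate number did not deviate together (r from -0.405 to 0.341 over 15 pairs), so the numbers do not pair samples. Arrays of the same slide correlated more (-0.155 to 0.473, mean 0.222, over 15 pairs), and slide as a block is given where it changes a call. Members, lists and alternatives were chosen with earlier results of these data known. Named were all members, Foxa3, up to 3 genes of smallest p per list in wild type (and up to 2 per list in other contrasts) and the 2 genes most like each member; other named genes were chosen after their values were seen. Alternatives were background correction (normexp), quantile and median scaling, filters, probe averaging, only the groups compared, a trended prior, array weights, slide and replicate blocks, the authors' table, no slide 1, and each array left out.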

Additional observations from a re-analysis of the deposited data

How the results depend on the processing

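The count of 7 receptors higher after OVA in knockouts became 0 with plain normexp and 0 without slide 1, 3 with only the groups compared, and 2 to 7 with 1 array left out; in wild type the 7 became 0, 0 and 6 to 7 under normexp, without slide 1 and with 1 array left out. Plain normexp called 0 genes after OVA in either genotype over the whole table; with 12 spots of far brighter local background left out, 7 members were called in each. Between genotypes after saline, the count of 0 became 1 (Cd209d) with array weights and 0 to 1 with 1 array left out. A replicate block gave 5 in knockouts and 6 in wild type, as did a slide block; other losses were mostly of Mrc1. Over the whole table, the 1788 genes called after OVA in knockouts varied between 0 and 3527, the 4167 in wild type between 0 and 8576, the 47 between genotypes after OVA between 1 and 94, and the 21 after saline between 0 and 54. The cause was not tested. No called value changed sign.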
